A study of Mus musculus with 4 samples.

Results

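The 9 genes described here mark the neurons of the cerebellum: Gabra6, Cbln1, Cbln3 and Fat2 are known from granule cells, Pcp2, Car8, Ppp1r17 and Calb1 from Purkinje cells, and Cnpy1 from cerebellar tissue. They were chosen by their FPKM levels in these same libraries and listed by name, and all 9 were found among the 54532 genes in the files. The libraries are poly-A RNA sequencing of C57BL/6 mouse brain, 1 library for each of 4 groups: naive and tumor-bearing mice, each either young or old. Tumor-bearing mice had received 50000 GL261 cells, a mouse glioma line, into the brain. Their tissue, which the labels call extra-tumoral, was taken on day 21, and the labels name no brain region beyond that. Young tumor-bearing mice were 8 to 12 weeks old, and the range given for the old ones also starts at 8 weeks and runs to 90. For the naive mice no age in weeks is given, only young or old in the titles. The labels attach GL261 to the naive libraries too, although their group tag reads naive, and give no number of mice behind a library.

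Granule cells are the small, densely packed excitatory neurons of the cerebellar cortex. Their parallel fibres synapse on Purkinje cells, the large inhibitory neurons that carry the only output of that cortex. Cerebellins made by granule cells bind neurexins on the parallel fibre and help to hold these synapses together. Several of the 9 genes are not exclusive to these cells. Calb1 is also known from neurons of cortex, hippocampus and striatum, Cbln1 from thalamus and other regions, and Ppp1r17 from hypothalamus.

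With 1 library a group there was no test between groups. Each statement below compares libraries, and parentheses hold exact 95% intervals that cover counting error only. Levels are FPKM, fragments per kilobase of exon scaled to depth, and the reads behind them were recovered from the FPKM values. The libraries held 19572251 to 23267926 fragments in genes. Since tissue was sequenced in bulk, fewer cells of a type and less RNA per cell cannot be told apart. With no region named, neither can be told apart from a smaller share of cerebellum in the tissue taken.

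Promoter windows are shown because the genes differ together between young and old libraries. RefSeq windows (GRCm38.p6, the assembly of mm10) were found for 5 of the 9 genes, and 3 are printed: Gabra6, which had the lowest log2 ratio of old to young naive tissue, and both genes that hold the E-box described next. Each is cut to the stretch before the gene start that overlaps no annotated exon. That of Gabra6 is chr11:42321073-42321322, that of Pcp2 chr8:3625607-3625778 and that of Cnpy1 chr5:28245807-28246038. All are on the minus strand and read 5′ to 3′ toward the gene. Capitals mark CAGATG or its complement CATCTG, an E-box that NEUROD and ATOH1 proteins can bind.
Gabra6: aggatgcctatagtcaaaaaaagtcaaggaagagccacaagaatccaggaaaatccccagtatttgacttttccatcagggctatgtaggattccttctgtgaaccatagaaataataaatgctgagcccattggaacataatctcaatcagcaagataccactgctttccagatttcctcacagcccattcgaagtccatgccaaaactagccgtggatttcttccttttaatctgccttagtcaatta
Pcp2: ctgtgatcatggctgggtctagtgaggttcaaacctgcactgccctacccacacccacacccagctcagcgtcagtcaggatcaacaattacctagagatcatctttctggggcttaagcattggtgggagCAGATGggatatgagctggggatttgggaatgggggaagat
Cnpy1: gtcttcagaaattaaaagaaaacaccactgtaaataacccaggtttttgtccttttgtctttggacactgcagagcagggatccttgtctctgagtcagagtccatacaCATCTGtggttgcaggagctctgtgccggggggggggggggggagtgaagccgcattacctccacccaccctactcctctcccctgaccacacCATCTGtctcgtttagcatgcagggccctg
The E-box stood 100 bases before the Pcp2 start and 141 and 48 bases before the Cnpy1 start. The window of Gabra6 held none of the 4 motifs searched. In the 250 bases before the start, on either strand, CAGATG was present in 14.4% of all 32851 promoter windows and in those of 2 of the 5 genes, Pcp2 and Cnpy1. AGGTCA, which ROR nuclear receptors bind, was present in 14.0% of windows and again in 2 of the 5, Fat2 and Pcp2. It stood 12 bases before the Pcp2 start and 31 bases before a RefSeq start of Fat2 at 55312257. That Fat2 start lies inside the annotated gene, whose 5′ end is at 55336564, so its window does not precede the annotated start. The palindromic consensus of NFI factors (0.703% of windows) and that of MEF2 factors (3.2%) were found in 0 of the 5. Pcp2 has 4 windows in the table, Cnpy1 2 and the other genes 1 each. These matches describe letters only.

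All 9 genes were abundant in both young libraries, and 8 of them were at 2.29 FPKM or less in both old ones. Together they had 39290 reads in the young naive library and 39331 in the young tumor-bearing one, against 2099 in naive and 622 in tumor-bearing tissue of old mice. Calb1 held 87.6% and 83.3% of the reads in the old libraries but only 19.9% and 17.2% in the young ones. The other 8 genes came to 1353 reads per 1000000 fragments in genes (1338 to 1368) in young naive and 1487 (1471 to 1503) in young tumor-bearing tissue. In old tissue they came to 13.3 (11.7 to 15.0) in the naive and 5.31 (4.34 to 6.44) in the tumor-bearing library.

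**Figure D1:**
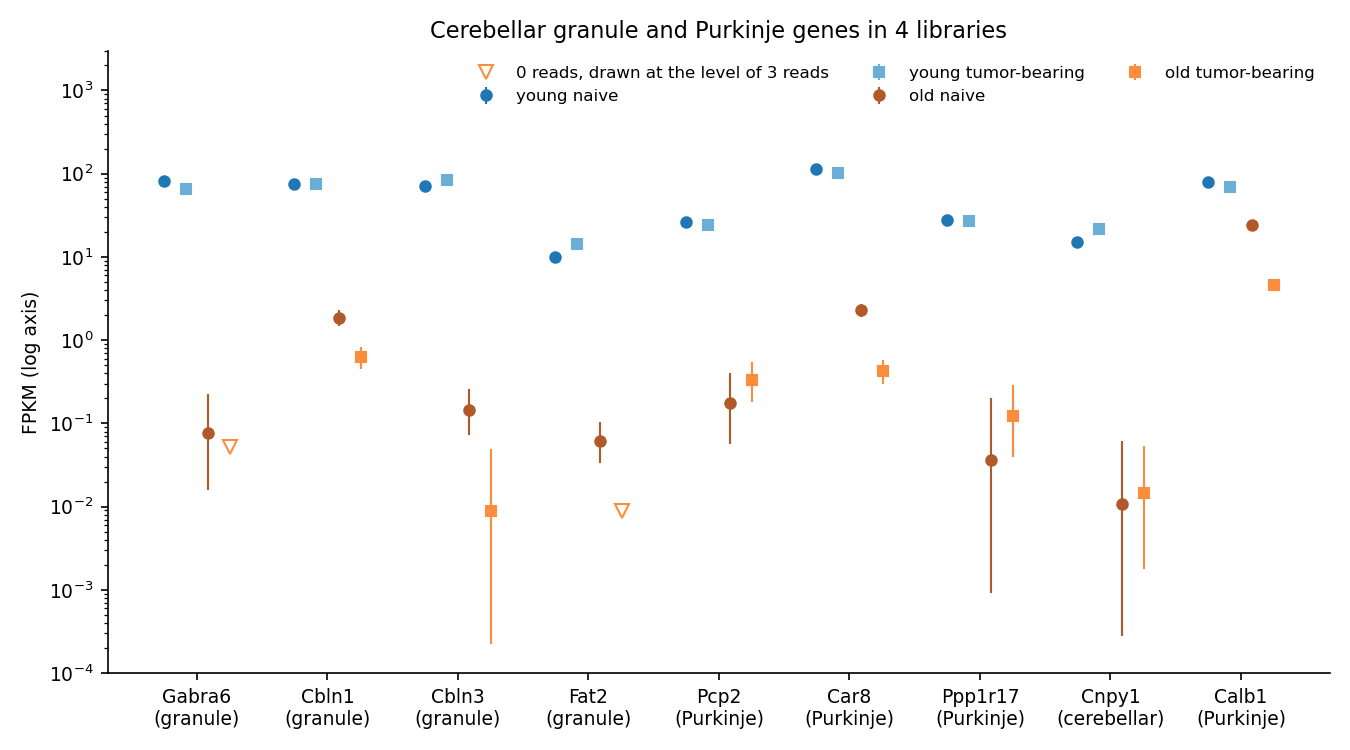
FPKM of each of the 9 genes on a log axis in the 4 libraries, with exact 95% Poisson intervals of the reads; open triangles stand for 0 reads and are drawn at the level of 3 reads. In both old libraries 8 of the 9 genes lie more than 10-fold below both young libraries, while Calb1 keeps 24.2 and 4.60 FPKM.

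Among the granule cell genes, Gabra6 encodes the alpha6 subunit of the GABA-A receptor, which serves tonic inhibition of granule cells (ENSMUSG00000020428, mm10 chromosome 11, 42306437 to 42321072). It was at 81.5 FPKM in young naive, 65.7 in young tumor-bearing, 0.077 in old naive and 0 FPKM in old tumor-bearing tissue, from 4147, 3268, 3 and 0 reads. The old naive library was 1058-fold lower than the young naive one (362 to 5132), and the old tumor-bearing library at least 1267-fold lower than the young tumor-bearing one, taking 3 reads as the limit that a count of 0 allows. Both young values placed Gabra6 among the 570 most abundant protein-coding genes.

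Cbln1, the cerebellin secreted at parallel fibre synapses (ENSMUSG00000031654, chromosome 8, 87468405 to 87472609), stood at 74.6 and 75.3 FPKM in young naive and young tumor-bearing tissue and at 1.85 and 0.623 FPKM in old naive and old tumor-bearing tissue. Its relative Cbln3, which assembles with Cbln1 (ENSMUSG00000040380, chromosome 14, 55878913 to 55884392), was at 70.8, 84.0, 0.144 and 0.00884 FPKM in the same order. The old libraries thus kept 88 and 44 reads of Cbln1 but 11 and 1 of Cbln3. In the naive pair Cbln1 was 40.3-fold lower in the old library (32.6 to 50.3) and Cbln3 490-fold (274 to 982). In the tumor-bearing pair Cbln1 was 121-fold lower (89.9 to 167), and Cbln3, with 1 read against 8176, 9506-fold (1706 to 375525). The ratio of Cbln1 to Cbln3 within a library, which no scaling of libraries can move, was 1.05 (1.02 to 1.09) in young naive, 0.896 (0.864 to 0.930) in young tumor-bearing, 12.8 (6.83 to 26.6) in old naive and 70.5 (12.0 to 2847) in old tumor-bearing tissue. The 2 genes were therefore close in both young libraries and far apart in both old ones.

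Fat2, a very large protocadherin of granule cells (ENSMUSG00000055333, chromosome 11, 55250609 to 55336564), had the lowest level per length of the 9 in young tissue. Its values were 9.92 FPKM in young naive, 14.4 in young tumor-bearing, 0.0616 in old naive and 0 in old tumor-bearing tissue, from 2948, 4175, 14 and 0 reads. It was 161-fold lower in the old than in the young naive library (95.9 to 295) and at least 1618-fold lower in the old tumor-bearing than in the young tumor-bearing one.

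Of the Purkinje cell genes, Pcp2 encodes a small regulator of G proteins and is the classic Purkinje marker L7 (ENSMUSG00000004630, chromosome 8, 3623371 to 3625545). It was at 26.4 and 24.4 FPKM in young naive and young tumor-bearing tissue and at 0.175 and 0.329 FPKM in old naive and old tumor-bearing tissue, from 988, 892, 5 and 14 reads. The difference was 151-fold in the naive pair (64.6 to 467) and 74.1-fold in the tumor-bearing pair (43.9 to 136). Pet100, a mitochondrial assembly factor whose annotation spans Pcp2 on the opposite strand, was at 3.72 FPKM in both young libraries, 4.54 in old naive and 3.99 in old tumor-bearing tissue. Whether the libraries keep strand is not stated, so reads of the pair could be exchanged.

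Car8, a carbonic anhydrase-like protein that binds the IP3 receptor of Purkinje cells (ENSMUSG00000041261, chromosome 4, 8143362 to 8239041), was the most abundant of the 9 in young tissue. It was at 113 FPKM in young naive, 103 in young tumor-bearing, 2.29 in old naive and 0.424 in old tumor-bearing tissue. That was 49.3-fold lower in the old naive library (41.6 to 58.7) and 244-fold lower in the old tumor-bearing library (178 to 345). Ppp1r17, the phosphatase inhibitor known as G-substrate (ENSMUSG00000002930, chromosome 6, 56017497 to 56032689), was at 28.0, 27.0, 0.0364 and 0.122 FPKM, with 1006, 950, 1 and 5 reads. Its difference was 770-fold in the naive pair (138 to 30438) and 221-fold in the tumor-bearing pair (94.3 to 682).

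Calb1, the calcium buffer calbindin (ENSMUSG00000028222, chromosome 4, 15881264 to 15908064), was the gene that kept a sizeable level. It was at 78.9 FPKM in young naive, 69.9 in young tumor-bearing, 24.2 in old naive and 4.60 in old tumor-bearing tissue, from 7820, 6774, 1838 and 518 reads. The old naive library was 3.26-fold lower (3.09 to 3.43) and the old tumor-bearing one 15.2-fold lower (13.9 to 16.7). The ratio of Calb1 to Pcp2 within a library was 2.99 (2.79 to 3.19) and 2.86 (2.67 to 3.08) in young naive and young tumor-bearing tissue, and 139 (59.3 to 428) and 14.0 (8.24 to 25.7) in old naive and old tumor-bearing tissue. The ratio of Ppp1r17 to Pcp2 was 1.06 (0.969 to 1.16) in young naive and 1.11 (1.01 to 1.22) in young tumor-bearing tissue. In old tissue it was 0.208 (0.0044 to 1.86) without and 0.372 (0.105 to 1.09) with a tumor, so that the intervals of all 4 libraries overlapped.

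Cnpy1, a member of the canopy family of FGF signaling regulators (ENSMUSG00000044681, chromosome 5, 28200819 to 28245806), was at 15.2 FPKM in young naive and 21.7 in young tumor-bearing tissue. In old naive and old tumor-bearing tissue it was at 0.0109 and 0.0147 FPKM, from 1 and 2 reads against 1820 and 2547. It was 1393-fold lower in the naive pair (250 to 55042) and 1481-fold lower in the tumor-bearing pair (409 to 12233).

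In young naive tissue the order of levels per length was Car8, Gabra6, Calb1, Cbln1, Cbln3, Ppp1r17, Pcp2, Cnpy1 and Fat2. The counting intervals of these neighbours overlapped for Gabra6 (79.0 to 84.0 FPKM) and Calb1 (77.2 to 80.7 FPKM), and for Ppp1r17 (26.3 to 29.8 FPKM) and Pcp2 (24.8 to 28.1 FPKM). Those of Cbln1 and Cbln3 met at 72.5 FPKM. In young tumor-bearing tissue Cbln3 came before Cbln1, Calb1 and Gabra6, which were at 84.0, 75.3, 69.9 and 65.7 FPKM.

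The comparison of old with young naive tissue sets 1 old against 1 young library without a tumor. Age and the part of the brain taken cannot be told apart here, since the labels name no region. All 9 genes were at least 2-fold lower on the log2 scale of FPKM + 0.1 (median -6.59), in a comparison where 3.07% of 12745 protein-coding genes at 1 FPKM or more in either library were that much lower and 3.26% higher. Since the genes were listed from these same values, the count and the places below are descriptions. All but Cbln1, Car8 and Calb1 reached 1 FPKM through the young naive library alone, so the count favours lower values. Ordered from the lowest log2 ratio, Gabra6, Cbln3, Ppp1r17, Cnpy1 and Pcp2 took places 1 to 5 among those 12745 genes. Fat2 took place 7, Car8 9, Cbln1 15 and Calb1 168. In the tumor-bearing pair all 9 were lower as well (median -7.18), where 27.9% of 13656 protein-coding genes were lower and 17.6% higher. All but Calb1 reached 1 FPKM in that pair through the young library alone, which favours lower values in the same way. There Cbln3 and Gabra6 took places 1 and 2 and Calb1 place 41, and the other 6 lay within the first 9 places. The 2 pairs share no library. Scaled to the pan-neuronal median, all 9 were still at least 2-fold lower in the tumor-bearing pair, with a median of -5.09 and Calb1 at -1.81.

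**Figure D2:**
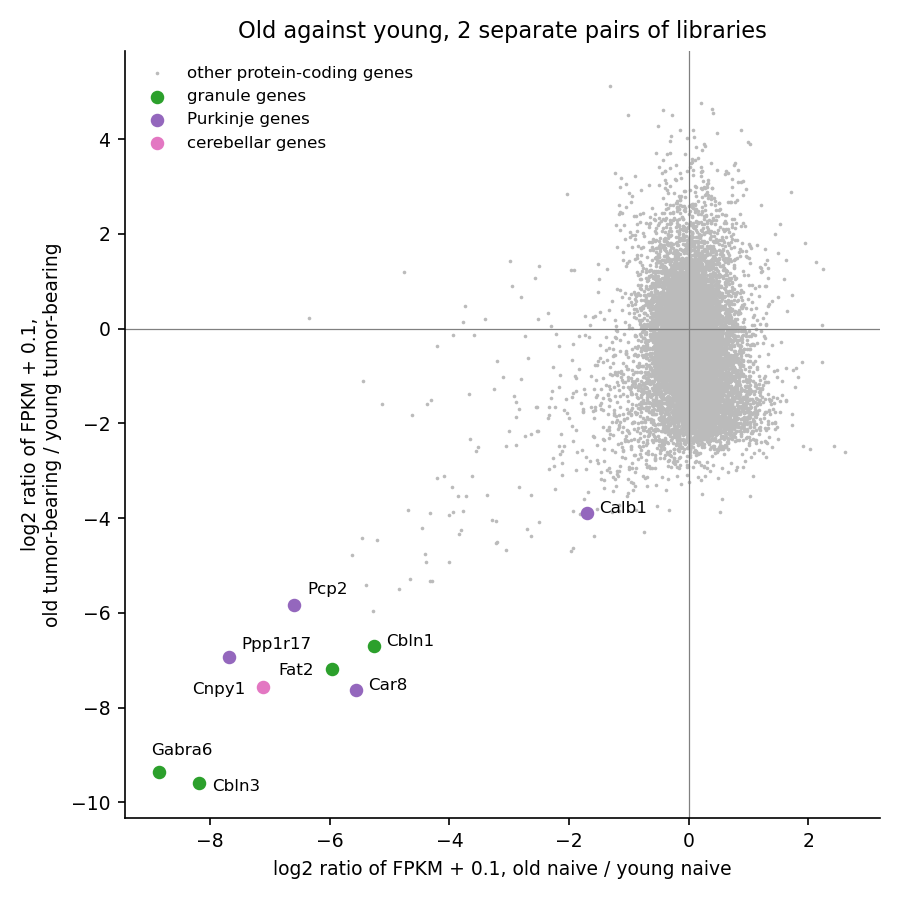
Each point is a protein-coding gene at 1 FPKM or more in both young libraries, with the log2 ratio of FPKM + 0.1 of old to young in the naive pair (horizontal) and in the tumor-bearing pair (vertical); colours mark the granule, Purkinje and other cerebellar genes described. Gabra6 and Cbln3 lie farthest to the lower left, and Calb1, at -1.70 and -3.90, lies closest to the bulk of genes.

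Of 12191 protein-coding genes at 1 FPKM or more in both young libraries, 242 (1.99%) were at least 2-fold lower in both old ones, all 9 among them. A limit of 20-fold lower in both pairs, chosen after the values were seen, held 18 of the 12191 (0.148%), 8 of them from the set. The other 10 were Dao, Lhx1, Crtam, En2, Aqp6, Slc6a3, Uncx, Gm10944, Iltifb and Bcl2l15. Since the 9 genes were listed from these same values, their share of either count is a description only. By distance between centred log2 profiles over the 4 libraries, among 13911 protein-coding genes, the nearest to Gabra6 outside the set were Dao, Lhx1, En2, Crtam and Aqp6. Those nearest to Pcp2 were Lhx1, Crtam, Dao, Uncx and En2, with distances from 0.907 to 1.41 log2 units. Lhx1, a transcription factor of Purkinje cells, was at 4.74, 5.49, 0.0157 and 0.0317 FPKM in the young naive and tumor-bearing and then the old naive and tumor-bearing tissue. En2, a transcription factor that patterns midbrain and cerebellum, was at 14.2, 13.7, 0.397 and 0.207 FPKM in the same order. Of the set itself, Cbln3 was nearest to Gabra6, at a distance of 0.512, and Calb1 farthest, at 6.40. A long noncoding RNA antisense to Cbln1, Gm2694, followed the same order of libraries, with 3.78, 4.42, 0.356 and 0.0299 FPKM, and without strand its reads could not be told from those of Cbln1 where the genes overlap.

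A wider list of granule neuron genes was lower in old tissue too, with smaller differences. In the naive pair 14 of its 16 genes were at least 2-fold lower and 0 higher (median -2.35), and 3.07% of protein-coding genes were lower. Barhl1, a homeobox gene of the granule lineage, had 128 reads in the young naive and 0 in the old naive library, at least 32.7-fold lower. Calb2, the calcium buffer calretinin, was at 88.9 and 6.05 FPKM, 14.7-fold lower (12.6 to 17.3). The 2 that were not 2-fold lower were Gabrd, a GABA-A subunit that pairs with alpha6, at 41.7 and 45.4 FPKM, and Grin2c, an NMDA receptor subunit, at 35.1 and 21.7 FPKM (1.62-fold lower, 1.52 to 1.71). In the tumor-bearing pair 13 of the 16 were lower (median -3.13, against 27.9% of protein-coding genes), with Neurod1 24.7-fold lower (20.1 to 30.7) and Mab21l1 38.6-fold (17.4 to 106).

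The wider Purkinje list had 13 of 21 measured genes at least 2-fold lower in the naive pair and 0 higher (median -1.17), where 3.07% of protein-coding genes were lower. Lhx5, a transcription factor, had 136 reads in the young naive and 0 in the old naive library (at least 34.7-fold lower), and Skor2, a transcriptional corepressor, had 123 and 0 (at least 31.4-fold lower). Others stayed within 2-fold, such as Itpr1, the IP3 receptor, at 70.6 and 57.4 FPKM, and Pcp4 at 44.9 and 39.9 FPKM, both chosen after their values were seen. In the tumor-bearing pair 20 of 21 were lower (median -3.02, against 27.9% of protein-coding genes and 16 of 18 pan-neuronal genes), and Slc1a6, the glutamate transporter of Purkinje cells, was 28.7-fold lower (21.2 to 39.9).

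Other cells of the cerebellar cortex gave mixed values in the naive pair. Of 7 measured interneuron genes 3 were lower and 0 higher: Slc6a5, the glycine transporter of Golgi cells, with 335 and 1 reads, Eomes, a marker of unipolar brush cells, with 160 and 0, and Tfap2b with 314 and 20. Grm2, Lypd6, Sorcs3 and Kit stayed within 2-fold (log2 ratios 0.92, 0.44, -0.01 and -0.91). Of 5 Bergmann glia genes 3 were lower and 0 higher, with Gdf10, a growth factor of these glia, 3.92-fold lower (3.35 to 4.62). Of protein-coding genes 3.07% were lower in that pair. In the tumor-bearing pair 7 of 7 interneuron and 4 of 5 Bergmann glia genes were lower, against 27.9% of protein-coding genes and 16 of 18 pan-neuronal genes.

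The lists of molecular partners of the set had medians near 0 in the naive pair, though single genes could lie apart from them. The 8 cerebellin relatives and partners had a median log2 ratio of 0.05, and Cbln4, a relative of Cbln1, was at 8.21 and 5.31 FPKM. Of the 5 partner subunits of GABA-A receptors 0 were 2-fold apart (median -0.15). In the tumor-bearing pair 7 of 8 and 5 of 5 were lower (medians -2.16 and -2.69), as were 16 of 18 pan-neuronal genes (median -2.09) and 27.9% of protein-coding genes.

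Genes of other brain regions also differed between the young and old libraries, and their part in the result was not tested. In the naive pair 5 of 12 cortical genes and 4 of 9 striatal genes were at least 2-fold higher in the old library and 0 lower (medians 0.95 and 0.97), where 3.26% of protein-coding genes were higher and 3.07% lower. The pan-neuronal median was 0.28. Of 7 measured thalamic genes 5 were lower (median -1.19), as were 2 of 2 measured hindbrain and spinal genes (median -2.92). Of 8 measured choroid plexus genes 7 were lower (median -2.55), and the summed level of that list was 490 FPKM in young naive against 49.8 in old naive tissue. In the old tumor-bearing library the choroid plexus list summed to 523 FPKM and to 490 in its young counterpart (median log2 ratio 0.06), whereas the 9 cerebellar genes summed to 6.12 and 486 FPKM. The choroid plexus genes were thus low in 1 old library and the cerebellar genes in both. In the tumor-bearing pair 11 of 12 cortical and 9 of 9 striatal genes were at least 2-fold lower (medians -1.59 and -2.01). So were 1 of 8 measured thalamic genes, 1 of 2 hindbrain and spinal genes and 16 of 18 pan-neuronal genes. None of these lists had a gene 2-fold higher there, where 27.9% of protein-coding genes were lower and 17.6% higher. The leukocyte list, which summed to 7.64, 35.9, 14.5 and 291 FPKM in the young naive and tumor-bearing and then the old naive and tumor-bearing tissue, was highest in the old tumor-bearing library. So was the cell cycle list, at 1.94, 8.52, 1.0 and 168 FPKM, with 8 of 8 genes at least 2-fold higher there than in the young tumor-bearing library (median 4.11) and the old naive one (median 6.47). The part of both lists in the values of the tumor-bearing pair was not tested.

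**Figure D3:**
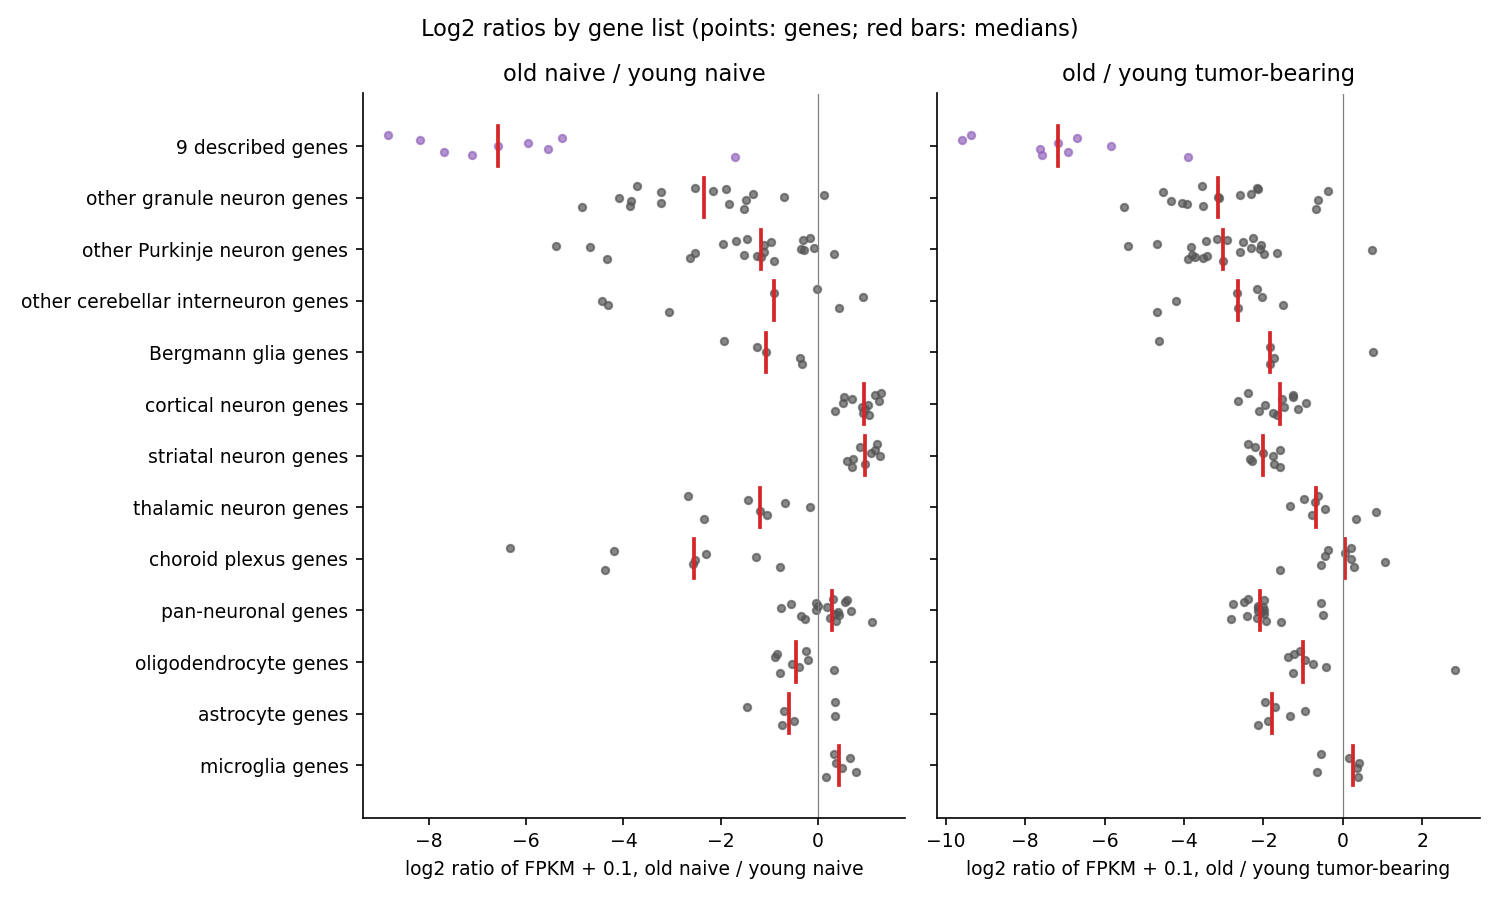
Log2 ratios of FPKM + 0.1 of old to young for the genes of each list at 1 FPKM or more in either library, in the naive pair (left) and the tumor-bearing pair (right); points are genes and red bars are medians. The 9 cerebellar genes have medians of -6.59 and -7.18, below those of every other list drawn. They were listed from these same values, so this order is a description.

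The comparison of young tumor-bearing with young naive tissue asks whether an engrafted glioma goes with a difference in the remaining brain. None of the 9 genes was 2-fold apart (median log2 ratio -0.05), where 2.31% of 12875 protein-coding genes were higher and 0.35% lower. Counting intervals excluded equality for 6 of them, in both directions. Fat2 was 1.45-fold higher in the tumor-bearing library (1.38 to 1.52), Cnpy1 1.43-fold (1.35 to 1.52) and Cbln3 1.19-fold (1.15 to 1.23). Gabra6 was 1.24-fold lower (1.19 to 1.30), Calb1 1.13-fold (1.09 to 1.17) and Car8 1.09-fold (1.06 to 1.12). Cbln1 (1.01-fold higher, 0.969 to 1.05), Pcp2 (1.08-fold lower, 0.989 to 1.19) and Ppp1r17 (1.04-fold lower, 0.947 to 1.13) did not differ beyond counting error. Scaled to the pan-neuronal median, Calb1 and Car8 turned higher (log2 ratios 0.03 and 0.08) and Gabra6 came to -0.10. These intervals hold no difference between mice.

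**Figure D4:**
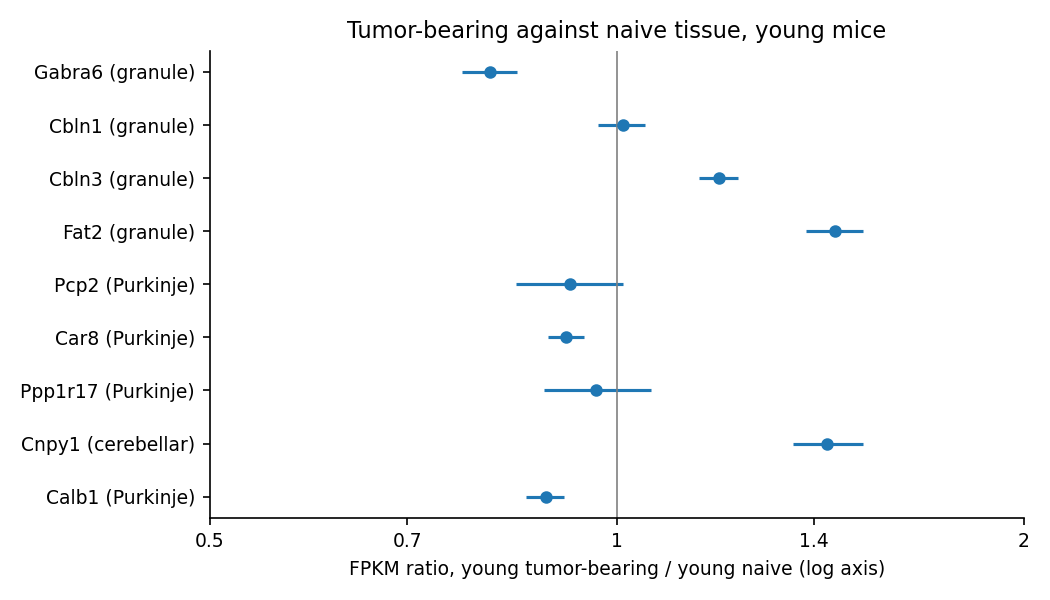
Ratio of FPKM of each of the 9 genes in young tumor-bearing to young naive tissue on a log axis, with exact 95% intervals of the reads; the vertical line marks equality. Granule cell genes lie on both sides of the line, from 0.806 for Gabra6 to 1.45 for Fat2.

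Between these 2 young libraries the granule cell genes therefore did not all differ in the same direction. With 1 library a group, this cannot be told apart from variation between mice. The ratio of Gabra6 to Cbln3 was 1.15 (1.11 to 1.20) in the naive and 0.781 (0.750 to 0.814) in the tumor-bearing library. The ratio of Car8 to Pcp2, both Purkinje genes, was 4.27 (4.0 to 4.56) and 4.24 (3.96 to 4.55). The wider granule and Purkinje lists had 0 of 16 and 0 of 21 genes 2-fold apart (medians 0.05 and 0.04).

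In old tissue the same comparison of tumor-bearing with naive could be made for few of the genes, since only Cbln1, Car8 and Calb1 reached 1 FPKM in either library. All 3 were at least 2-fold lower in the tumor-bearing library, where 29.7% of 13582 protein-coding genes were lower, 19.3% higher, and 17 of 18 pan-neuronal genes lower (median -2.51). Cbln1 and Car8 reached 1 FPKM through the naive library alone, so the count favours lower values. With no such floor 4 of the 9 were lower, Cbln3 the added one, and the median was -0.82. Calb1 was 5.27-fold lower (4.78 to 5.82), Car8 5.40-fold (3.75 to 7.95) and Cbln1 2.97-fold (2.05 to 4.37). Cbln1 was less than 2-fold lower when libraries were scaled by fragments in genes (-0.91) or with a pseudocount of 1 (-0.81). Relative to the pan-neuronal median, the log2 ratios of these 3 genes turned to 0.13, 0.32 and 1.08. That shift was applied after the pseudocount of 0.1, which raises the scaled values of the low genes Car8 and Cbln1. Among the 6 genes below 1 FPKM, Cbln3 went from 11 reads to 1 (16.3-fold lower, 2.38 to 704) and Fat2 from 14 reads to 0 (at least 6.94-fold lower). Pcp2, with 5 and 14 reads, was 1.88-fold higher within an interval of 0.641 to 6.68, and Ppp1r17, with 1 and 5 reads, 3.36-fold higher within 0.376 to 159, so neither difference was detectable at this depth. Gabra6 (3 and 0 reads) and Cnpy1 (1 and 2 reads) were at or below the limit of 3 reads in both old libraries.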

How the data were processed

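Per the file headers, the authors deposited 1 FPKM value per gene and library. The submitters' processing notes name HISAT2 as a tool and mm10 as the build. The counter, annotation, filters and pooling of mice are not given in the sources used here. Symbols, positions and merged exon lengths were taken from the GENCODE M21 annotation of mm10, where 54495 of 54532 genes had a symbol. FPKM times exon length came in whole steps, which gave each library's divisor and reads. Of 32867 genes above 0, 97.1% were whole in all 4 libraries (within 0.03 reads or 2e-05 of the value), as were all 9 described. The divisor per fragment in genes differed 1.49-fold between libraries, and mitochondrial genes held 2.12% to 5.51% of fragments. No count test was run, since a group is 1 library.

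Genes at 1 FPKM or more in either library were compared by log2 ratios of FPKM + 0.1, which understates low genes. Those at least 2-fold apart were counted. Folds are ratios of FPKM with exact conditional binomial intervals, and levels have exact Poisson intervals. Both describe counting error alone, because PCR copies were not marked by molecular identifiers. The procedure was tested on simulated data. Genes named were the 9, up to 3 per list with the largest log2 ratio, the 5 nearest profiles to Gabra6 and to Pcp2, and those said to be chosen later. The members and lists were chosen with earlier results of these data known. Alternatives were 3 scalings, pseudocounts of 1 and 0.01, and floors of 5 FPKM and none. Python 3.11.15, scipy 1.17.1 and matplotlib 3.10.9 were used. Some genes that this rule names are not reported here.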

Additional observations from a re-analysis of the deposited data

Results flagged for a closer look

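The tumor-bearing to naive ratio of Cbln3 and Fat2 ran in opposite directions at the 2 ages, with counting intervals that excluded equality at both. Both were higher in the young tumor-bearing library and lower in the old one. The old log2 ratio minus the young one was -1.41 for Cbln3 and -1.22 for Fat2. The old values rest on 11 and 1 reads of Cbln3 and 14 and 0 reads of Fat2. The difference between ages was not tested, since each group is 1 library. Scaled to the pan-neuronal median, the old log2 ratios of FPKM + 0.1 became 1.34 for Cbln3 and 1.82 for Fat2. The differences turned to 0.89 for Cbln3 and 1.08 for Fat2. That shift was added after the pseudocount of 0.1, which dominates at such low FPKM, so these values show no reversal. The old ratio of FPKM itself was 0.0612 for Cbln3 and 0 for Fat2, and no scaling lifts 0 above 1.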

How the results depend on the processing

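No paired analysis was possible because each group holds 1 library. The 9 genes were all at least 2-fold lower in both old libraries, and 0 of 9 were 2-fold apart in the young pair, under each of the 7 alternatives. In the old pair the count of 3 lower genes became 1 at a floor of 5 FPKM, 2 when scaled by fragments in genes or with a pseudocount of 1, and 4 with no floor. Scaled to the pan-neuronal median it became 1 higher gene, Cbln1 (1.08), with Car8 at 0.32, Calb1 at 0.13 and the median of the 3 at 0.32. The shift was applied after the 0.1 pseudocount, which raises the scaled values of low genes such as Cbln1, so this call is not firm. The median over the 9 genes of the old minus the young tumor log2 ratio was -1.22. It became -0.48 with a pseudocount of 1 and -2.22 with 0.01, so it rests partly on the pseudocount. Scaled to the pan-neuronal median it became 1.08, the value of Fat2, which had 14 and 0 reads in the old pair. The shift followed the 0.1 pseudocount there too, so for Fat2 this change of sign shows no reversal. No other cause was tested. Of 236 further values, for single genes and medians, 171 stayed within the range that the Poisson intervals of both libraries allow on the log2 scale (for a median, those of its middle gene), 61 moved beyond it and 4 at least 2-fold apart turned sign. The sign changed in 11, of which 9 arose from scaling to the pan-neuronal median and 2 from fragments in genes. In the young pair the pan-neuronal scaling gave Pcp2 0.09, Car8 0.08, Ppp1r17 0.16, Calb1 0.03 and a median of 0.16. Between the tumor-bearing libraries it moved the median log2 ratio of all genes by 2.09, and by 2.51 in the old pair. Scaling by fragments in genes moved the median log2 ratio of all genes by 0.56 in the old pair and by 0.37 between the tumor-bearing libraries, and median-of-ratios by 0.35 and 0.31. For a gene of 1 kb, 3 reads stand for 0.129 to 0.192 FPKM, which limits what can be said of the 8 low genes in old tissue.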
